A study of Homo sapiens with 6 samples.

Results

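ZBTB genes encode transcription factors that join a BTB domain near the amino terminus to zinc fingers near the carboxy terminus. Of the genes on the array, 39 carried a symbol made of ZBTB, a number and at most 1 further letter, out of 18417 genes named by a single symbol. They were read by 45 probe sets, and where a gene had several, the brightest on average across the 6 arrays stood for it. The rule used symbols only, but the family was picked for description with earlier results of these data known.

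The cells were PC3, an established androgen independent prostate cancer cell line. They had been transfected with miR-205 (n = 3 arrays) or with a negative control mimic (n = 3 arrays), and the series design describes the arrays of each group as biological triplicates. In both groups alike, AGO2, an Argonaute protein that carries microRNAs, was immunoprecipitated, and the RNA recovered with it was hybridised to Affymetrix gene arrays. The purpose given by the series title was to identify targets of miR-205. All values below are log2 intensities after the authors' RMA normalization, and differences are miR-205 minus negative control on that scale. Input RNA was not analysed here, so more transcript in the cells and more transcript held by AGO2 cannot be told apart. No probe set used here reads the transfected mimic, so the group labels could not be checked against it.

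The BTB domain lets these proteins pair with each other and recruits corepressors and histone deacetylases, and some BTB domains also bind the ubiquitin ligase scaffold CUL3. The zinc fingers select the DNA, so most of the family is known as sequence-specific repressors. Members are best known for control of blood cell lineages, of cell cycle inhibitor genes and of methylated DNA. A microRNA guides AGO2 to messenger RNAs that pair with its seed, the bases near its 5′ end, and such messengers are usually destabilised or translated less. That describes messengers in the cells, whereas these arrays read RNA recovered with AGO2. In such RNA, a messenger held more by AGO2 gives a higher value, not a lower one. Neither direction was taken here to mark a target.

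The mature sequence of miR-205 shows what an AGO2 complex loaded with the mimic reads with. The labels do not name the arm, and the 5p arm is printed from RefSeq (GRCh38.p14, plus strand, chr1:209432166-209432187). Capitals mark the seed, bases 2 to 8.

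hsa-miR-205-5p: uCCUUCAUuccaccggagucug

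A messenger RNA site that pairs with all 7 seed bases reads 5′-AUGAAGG-3′. The messenger RNAs of the ZBTB genes were not searched for it, since transcript sequences were not used here.

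Array medians lay between 6.82 and 6.86. The epithelial keratins KRT8 and KRT18, known in PC3, had means of 11.62 and 11.65 over the 6 arrays. Of 8 measured markers of leukocytes, endothelium, fibroblasts and liver, 5 lay below 6.04, the level that only 5% of 341 olfactory receptor genes exceed, and the others were PECAM1, COL1A1 and APOA1. Some markers moved with the groups. The epithelial genes EPCAM (2.29), KRT8 (0.89) and KRT18 (0.55) rose, the endothelial marker PECAM1 had a difference of -0.98 (limma adjusted p = 0.000227) and AGO2 itself one of -0.73. COL1A1 and APOA1 did not pass, and the part of these changes in the ZBTB results was not tested. All 39 ZBTB genes had a mean above 6.04. On the first principal component of all genes (69.5% of the variance) negative control replicate 2 stood at 11.2, against 22.2 and 23.8 for the other controls and -19.6 to -18.3 for miR-205. It also stood apart on the second component (13.1% of the variance), and results that rest on it are given with and without it.

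With miR-205, the ZBTB genes that passed the test were lower with 1 exception. Of the 39 genes, 11 fell (28.2%), 1 rose (2.56%) and 27 did not pass, by limma with a Benjamini-Hochberg adjusted p under 0.05 over all 18417 genes. Over all genes, 14.0% fell, 12.6% rose and 26.6% passed in either direction. These shares depend on how bright the compared genes are. With only genes above 6.04 in the fit, 33.3% of the ZBTB genes fell and 5.13% rose, against 20.5% and 18.3% of all genes. With only genes above the median of all genes, 8 of 27 ZBTB genes fell (29.6%) and 2 rose (7.41%), against 27.0% and 24.3%. The median difference of the ZBTB genes was -0.13, against -0.02 for all genes, and 32 of the 39 lay below 0 (82.1%, against 53.8% of all genes). Whether the ZBTB share differs from that of other genes was not tested. The mean of the ZBTB genes, less the mean of all genes, was 0.82, 0.84 and 0.82 in the miR-205 arrays. It was 0.97, 0.92 and 1.03 in negative control replicates 1, 2 and 3. Every miR-205 array thus lay below every control array on this measure, with control replicate 2 the closest of the controls.

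**Figure D1:**
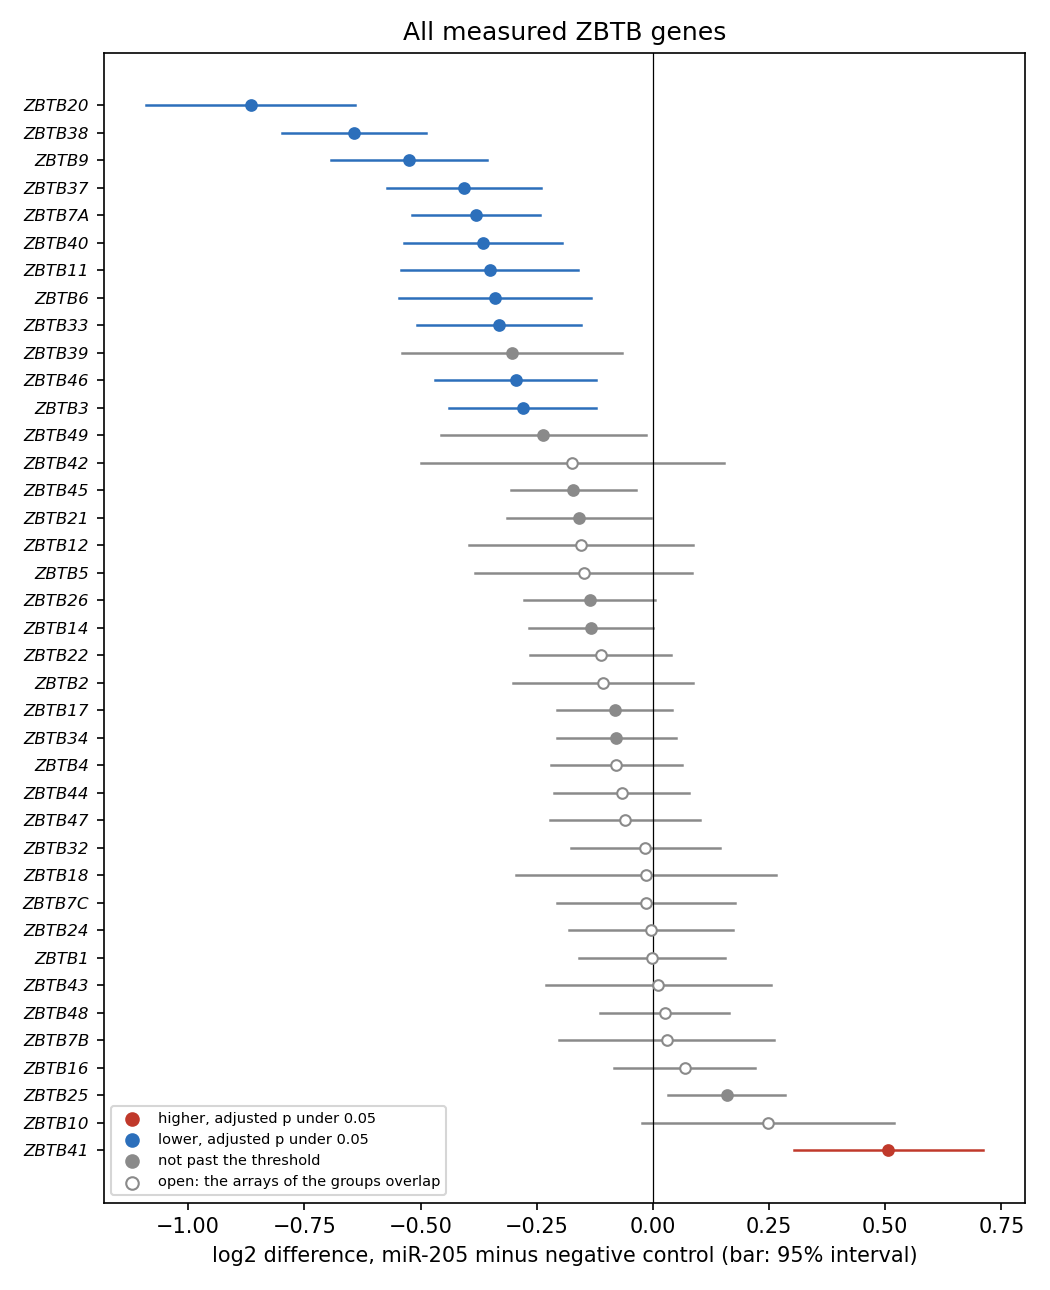
Log2 difference (x axis, miR-205 minus negative control, n = 3 arrays each) of all 39 measured ZBTB genes (y axis), with bars for 95% intervals from limma, blue for genes that fell, red for the gene that rose, grey for those that did not pass, and open points where the arrays of the groups overlap. ZBTB20 (-0.87) and ZBTB38 (-0.64) lie farthest to the left and ZBTB41 (0.51) farthest to the right.

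For 21 of the 39 ZBTB genes, no miR-205 array lay within the range of the controls or the reverse, 19 lower and 2 higher with miR-205. Over all genes 42.2% had such separate groups, 22.2% lower and 19.9% higher, against 53.8%, 48.7% and 5.13% of the ZBTB genes.

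Both genes listed for methyl-CpG binding alone fell, where 14.0% of all genes did. ZBTB4, which also binds methylated CpG sites but was listed with the cell cycle regulators, did not pass, so 2 of these 3 genes fell. ZBTB38 encodes a zinc finger protein that binds methylated CpG sites and represses transcription. Its values were 9.74, 9.68 and 9.67 with miR-205 and 10.25, 10.32 and 10.45 with the control. The 3 miR-205 arrays lay close together and well under the lowest control array. The difference was -0.64 ± 0.07 (SE, n = 3 per group, limma adjusted p = 0.000312), or 1.56-fold lower. A second ZBTB38 probe set, not used in the fit by gene, gave -0.54 ± 0.07 (limma adjusted p = 0.00112 over all single-gene probe sets), so both probe sets of this gene fell.

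ZBTB33 encodes Kaiso, which reads methylated CpG pairs and also an unmethylated consensus site. It stood at 10.82, 10.81 and 10.97 with miR-205 and at 11.27, 11.07 and 11.25 with the control. The lowest control array was replicate 2, and the groups did not overlap. The difference was -0.33 ± 0.08 (SE, n = 3 per group, limma adjusted p = 0.0134), or 1.26-fold lower, and -0.40 without negative control replicate 2. Leaving out miR-205 replicate 1, miR-205 replicate 2 or control replicate 3 ended the call (limma adjusted p = 0.0535, 0.0571 and 0.0515). ZBTB4, the third Kaiso-like protein, had a difference of -0.08 (limma adjusted p = 0.407, n = 3 per group), with a 95% interval from -0.22 to 0.06.

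Kaiso's unmethylated site is written TCCTGCNA, and it was searched on both strands of the promoter windows that RefSeq (GRCh38.p14) gives, 250 bases before to 50 after each start. Windows were at hand for 33 of the 39 ZBTB genes, many with several starts. The site was found in 5 of 66 ZBTB windows (7.58%), against 4.69% of 35116 windows of all genes. Counted by gene, 5 of 33 ZBTB genes (15.2%) had it in at least 1 window, against 5.75% of all genes, and the difference was not tested. These windows belonged to ZBTB7C, ZBTB18, ZBTB20, ZBTB38 and ZBTB47, of which ZBTB20 and ZBTB38 fell. CACCTG, the E-box bound by the repressor ZEB1, was searched likewise as ZEB1 is a known miR-205 target, and was found in 7 of the 66 windows (10.6%), against 20.6% of all windows. Counted by gene, 6 of 33 ZBTB genes (18.2%) had it, against 24.1% of all genes. ZBTB20 and ZBTB38 were among these 6, in windows other than those with the Kaiso site. The upstream parts that hold the Kaiso letters are shown for the 2 genes that fell most, with those letters in capitals, here on the strand opposite to the gene. The ZBTB38 window is chr3:141386175-141386424, plus strand, and the ZBTB20 window is chr3:114624207-114624456, minus strand.

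ZBTB38: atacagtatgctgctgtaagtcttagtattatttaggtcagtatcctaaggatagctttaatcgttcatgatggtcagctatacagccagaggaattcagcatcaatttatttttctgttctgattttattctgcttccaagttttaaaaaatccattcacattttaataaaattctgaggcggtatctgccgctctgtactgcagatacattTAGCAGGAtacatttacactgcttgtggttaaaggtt

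ZBTB20: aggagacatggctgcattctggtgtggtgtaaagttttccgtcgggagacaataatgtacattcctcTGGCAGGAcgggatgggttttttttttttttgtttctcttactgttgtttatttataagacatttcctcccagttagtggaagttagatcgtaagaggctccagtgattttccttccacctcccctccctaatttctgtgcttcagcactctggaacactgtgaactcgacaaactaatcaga

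The capitals begin 37 bases before the start in ZBTB38 and 183 bases before it in ZBTB20. Each is 1 of several starts of its gene, 10 for ZBTB38 and 8 for ZBTB20, and a gene with more windows has more chances to hold a given string. A match of letters is a description of the sequence and shows no binding.

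Among 5 genes listed for neural and metabolic development, ZBTB20 fell (20%, against 14.0% of all genes) and the others did not pass. ZBTB20 is a repressor known from liver and from the developing hippocampus. It had the largest fall of all ZBTB genes measured here. Its values were 7.32, 7.21 and 7.11 with miR-205 and 7.97, 7.97 and 8.30 with the control. The gap between the groups was wider than the spread within either of them. The difference was -0.87 ± 0.10 (SE, n = 3 per group, limma adjusted p = 0.000455), or 1.82-fold lower. ZBTB45 had a difference of -0.17 with groups that did not overlap (limma adjusted p = 0.0632, n = 3 per group). ZBTB18, a repressor of neuronal development, ZBTB7C and ZBTB42 lay between -0.17 and -0.01, with groups that overlapped.

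Among 6 genes listed as regulators of cell cycle inhibitors or of the MYC and p53 pathways, ZBTB7A fell and 5 did not pass. The share that fell was 16.7%, near the 14.0% of all genes. ZBTB7A, also known as LRF or Pokemon, represses the ARF product of CDKN2A and is known as a proto-oncogene in some tissues and a suppressor in others, prostate included. It stood at 9.48, 9.48 and 9.43 with miR-205 and at 9.87, 9.77 and 9.89 with the control. Both groups were tight and did not overlap. The difference was -0.38 ± 0.06 (SE, n = 3 per group, limma adjusted p = 0.00231), or 1.30-fold lower. ZBTB17, which encodes the MYC partner MIZ1, had values of 8.46, 8.50 and 8.46 with miR-205 and 8.55, 8.56 and 8.55 with the control. The groups did not overlap, but the difference was small at -0.08 (95% interval -0.21 to 0.04, limma adjusted p = 0.316, n = 3 per group). ZBTB2 (-0.11) and ZBTB5 (-0.15), repressors of the p21 gene CDKN1A, had groups that overlapped.

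ZBTB10, a repressor of SP-family genes, was chosen here after its values were seen. It had 8.98, 9.24 and 9.25 with miR-205 and 8.77, 9.17 and 8.80 with the control, so that 1 control array, replicate 2, lay among the miR-205 arrays. The difference was 0.25 (limma adjusted p = 0.167, n = 3 per group) with all arrays and 0.38 (limma adjusted p = 0.0144) without that control array.

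Of 6 genes listed for blood and immune lineages, ZBTB46 fell (16.7%, near the 14.0% of all genes) and 5 did not pass. ZBTB46 is known as a marker of classical dendritic cells, and its protein represses genes of other myeloid fates. Its values were 7.04, 7.04 and 6.91 with miR-205 and 7.27, 7.18 and 7.42 with the control, without overlap. The difference was -0.29 ± 0.08 (SE, n = 3 per group, limma adjusted p = 0.021). The call was lost without miR-205 replicate 3, negative control replicate 1 or negative control replicate 3 (limma adjusted p = 0.0793, 0.0513 and 0.0651).

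ZBTB25 was the second gene whose miR-205 arrays all lay above the controls, at 8.56, 8.51 and 8.54 against 8.38, 8.41 and 8.35. Its difference of 0.16 did not pass (limma adjusted p = 0.0651, n = 3 per group). ZBTB16, which encodes PLZF, a regulator of natural killer T cells and of spermatogonial stem cells, differed by 0.07 (95% interval -0.08 to 0.22, limma adjusted p = 0.508, n = 3 per group). ZBTB1, needed for lymphoid development, ZBTB7B, the CD4 lineage factor ThPOK, and ZBTB32 had differences between -0.02 and 0.03 with overlapping groups.

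Among 3 genes listed for DNA methylation upkeep, telomeres and genome stability, 1 fell (33.3%, against 14.0% of all genes), which was ZBTB40. It stood at 9.24, 9.19 and 9.24 with miR-205 and at 9.55, 9.48 and 9.73 with the control. The miR-205 arrays were tight and all lay under the lowest control, which was replicate 2. The difference was -0.37 ± 0.07 (SE, n = 3 per group, limma adjusted p = 0.00735), and -0.42 without that control array. ZBTB24, whose loss causes a form of the ICF syndrome with hypomethylated centromeric repeats, had a difference of 0.00 (95% interval -0.18 to 0.17), and ZBTB48, the telomere-binding protein TZAP, one of 0.02 (-0.11 to 0.16).

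**Figure D2:**
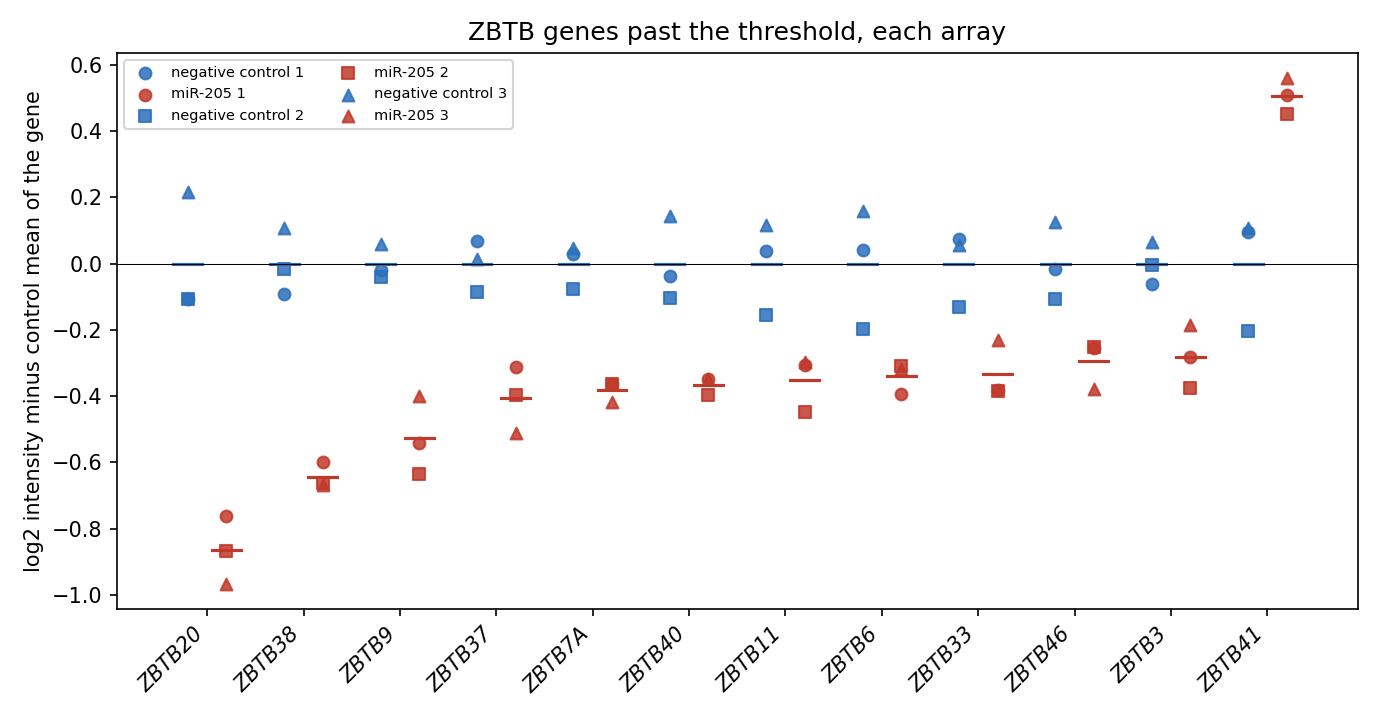
Log2 intensity of each array less the control mean of the same gene (y axis) for the 12 ZBTB genes past the threshold (x axis), with blue points for negative control arrays, red points for miR-205 arrays, a marker shape per replicate number and short bars for group means. The groups do not overlap for any of the 12 genes, and negative control replicate 2 (blue squares) is the control nearest to the miR-205 arrays for several of them, such as ZBTB6 and ZBTB11.

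The remaining 17 ZBTB genes, most of them less studied, held the single gene that rose and 5 of those that fell. Of these 17, 29.4% fell and 5.88% rose, against 14.0% and 12.6% of all genes. ZBTB41 had 9.42, 9.36 and 9.46 with miR-205 and 9.0, 8.70 and 9.01 with the control. All miR-205 arrays were above all controls, and control replicate 2 was the lowest array, farther from miR-205 than the other controls. The difference was 0.51 ± 0.09 (SE, n = 3 per group, limma adjusted p = 0.00374), or 1.42-fold higher. Without negative control replicate 2 it was smaller, at 0.41 (limma adjusted p = 0.00227).

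ZBTB9 stood at 8.28, 8.19 and 8.42 with miR-205 and at 8.80, 8.79 and 8.89 with the control. Its difference of -0.53 ± 0.07 (SE, n = 3 per group, limma adjusted p = 0.00122) was the third largest fall among the ZBTB genes. ZBTB37 had 7.01, 6.93 and 6.81 with miR-205 and 7.39, 7.24 and 7.34 with the control, a difference of -0.41 ± 0.07 (SE, n = 3 per group, limma adjusted p = 0.00402). In both genes the highest miR-205 array was clearly under the lowest control.

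ZBTB11, a factor known for control of nuclear-encoded mitochondrial genes, had 9.74, 9.60 and 9.75 with miR-205 and 10.09, 9.89 and 10.17 with the control. Its difference was -0.35 ± 0.08 (SE, n = 3 per group, limma adjusted p = 0.0148), and -0.43 without negative control replicate 2. ZBTB6 had 7.24, 7.32 and 7.32 with miR-205 and 7.67, 7.43 and 7.79 with the control. Its difference was -0.34 ± 0.09 (SE, n = 3 per group, limma adjusted p = 0.0243), and -0.44 without negative control replicate 2. ZBTB3 had 7.31, 7.22 and 7.41 with miR-205 and 7.53, 7.59 and 7.66 with the control, a difference of -0.28 ± 0.07 (SE, n = 3 per group, limma adjusted p = 0.0179).

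In these 3 genes the groups did not overlap but lay closer together. The call of ZBTB11 was lost without miR-205 replicate 2, negative control replicate 1 or negative control replicate 3 (limma adjusted p = 0.0623, 0.0518 and 0.0542). That of ZBTB3 was lost without miR-205 replicate 1, miR-205 replicate 2 or negative control replicate 3 (limma adjusted p = 0.0559, 0.0764 and 0.0625). That of ZBTB6 was lost when any 1 array other than negative control replicate 2 was left out (limma adjusted p = 0.0602 to 0.083).

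Other genes of this group had groups that did not overlap and yet did not pass. They were ZBTB39 with -0.30 (limma adjusted p = 0.0615, n = 3 per group), ZBTB49 with -0.24 (0.109), ZBTB21 with -0.16 (0.123), ZBTB14 with -0.13 (0.131), ZBTB26 with -0.14 (0.147) and ZBTB34 with -0.08 (0.352). All 6 lay on the lower side. Of the 17 genes of this group, 64.7% had separate groups lower with miR-205, against 22.2% of all genes. Over the whole family, the 18 genes with overlapping groups had differences from -0.17 to 0.25 and limma adjusted p-values of 0.167 or more.

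ZBTB34 was read by 4 probe sets that did not move alike. The one used stood near 12.0 in every array and differed by -0.08. The others stood near 8 and differed by -0.35, -0.22 and -0.40, with limma adjusted p-values over single-gene probe sets of 0.204, 0.353 and 0.151 (n = 3 per group). In each of these 3, negative control replicate 2 (8.01, 7.80 and 8.28) lay among the miR-205 arrays or below them, and the other controls lay above. ZBTB22 was read by a pair of probe sets with nearly the same difference (-0.11 each), and the pair for ZBTB12 held identical values in all 6 arrays.

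Negative control replicate 2 lay on the miR-205 side of the mean of the other controls for 30 of the 39 ZBTB genes, and for 11 of the 12 that passed. A gene counted this way can have that array between the other controls, as ZBTB38 did (10.32, with 10.25 and 10.45). The count went by sign alone, however small the offset, and was not made over all genes. On the first component of all genes that array also lay toward miR-205. Whether the count is particular to ZBTB genes was not tested. Without it, 14 ZBTB genes fell and 2 rose, where 15.6% of all genes fell and 14.5% rose. ZBTB39, ZBTB49 and ZBTB21 then fell too (limma adjusted p = 0.0302, 0.011 and 0.0392), ZBTB10 rose, and all 12 of the earlier calls stood. Without negative control replicate 3, 6 ZBTB genes fell (10.4% of all genes), and without miR-205 replicate 2, 7 fell (9.65% of all genes).

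**Figure D3:**
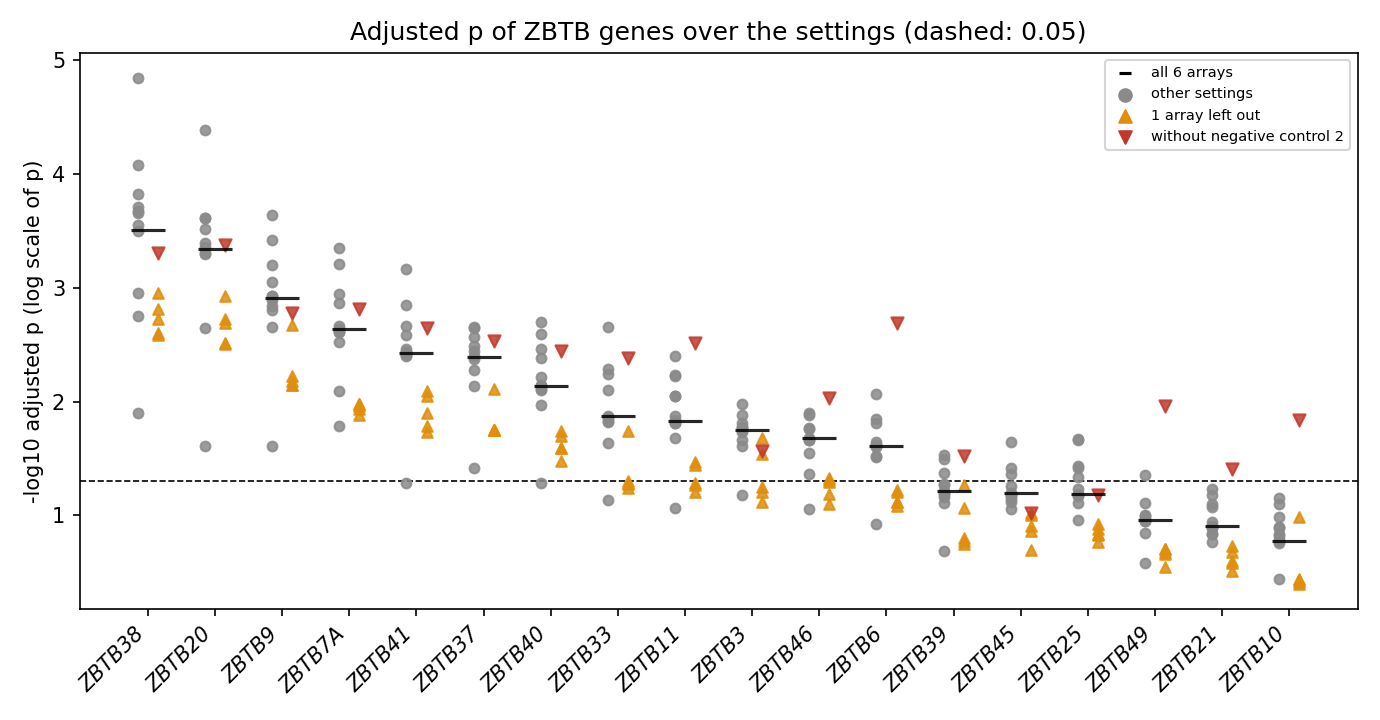
The y axis is -log10 of the limma adjusted p of 12 ZBTB genes past the threshold and 6 near it (x axis), with black bars for all 6 arrays, grey circles for other settings, triangles for fits with 1 array left out, red where that array is negative control replicate 2, and a dashed line at 0.05. ZBTB38, ZBTB20, ZBTB9, ZBTB7A and ZBTB37 stay above the line throughout, while ZBTB6 drops below it in 5 of the 6 fits with 1 array left out.

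The 8 BTB zinc finger genes that carry other symbols were mixed. Of them, 12.5% fell and 12.5% rose, near the 14.0% and 12.6% of all genes. MYNN, which encodes myoneurin, rose by 0.34 ± 0.08 (SE, n = 3 per group, limma adjusted p = 0.0116), and PATZ1 fell by 0.32 ± 0.09 (limma adjusted p = 0.0304). PATZ1 passed in 2 of 6 fits with 1 array left out. The tumour suppressor candidates HIC1 (-0.08) and HIC2 (-0.23) and the germinal centre repressor BCL6 (-0.07) did not pass, nor did BCL6B, GZF1 and ZNF131.

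Of 22 measured genes for BTB corepressors, deacetylases and other partners, 9 fell (40.9%, against 14.0% of all genes), 0 rose (against 12.6%) and 13 did not pass by limma (0 were higher at an unadjusted p under 0.05). With only genes above the median of all genes in the fit, 38.1% of the partners fell, against 27.0% of all genes. Without negative control replicate 2, 9 fell (40.9%) and 2 rose (9.09%), where 15.6% of all genes fell and 14.5% rose. Among those that fell were CHD4, the remodelling ATPase of the NuRD complex (-0.38, limma adjusted p = 0.00244), and the acetyltransferase gene EP300 (-0.43, limma adjusted p = 0.00244). The corepressor gene CTBP2 (-0.37, limma adjusted p = 0.00358) and the deacetylase gene HDAC7 (-0.34, limma adjusted p = 0.00505) fell as well. CUL3, the ubiquitin ligase scaffold, had a difference of -0.12 (limma adjusted p = 0.213), and MYC, the partner of ZBTB17, one of 0.09 (limma adjusted p = 0.66).

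Of 15 genes reported to be regulated by ZBTB proteins, 5 fell (33.3%, against 14.0% of all genes), 0 rose (against 12.6%) and 10 did not pass by limma (0 were higher at an unadjusted p under 0.05). With only genes above 6.04 in the fit, 5 of 13 fell (38.5%, against 20.5% of all genes). With only genes above the median of all genes, 6 of 9 fell (66.7%, against 27.0%). These differences were not tested. CDKN2A, which ZBTB7A represses, had a difference of -0.30 (limma adjusted p = 0.00657), SP3, which ZBTB10 represses, one of -0.26 (0.0135), the cell cycle inhibitor gene CDKN1C one of -0.26 (0.0143) and the cyclin gene CCNA2, a PLZF target, one of -0.25 (0.0145). CDKN1A had a difference of 0.05 (limma adjusted p = 0.682), and CDCA7, a target of ZBTB24, one of 0.14 (0.378). ZBTB7A and CDKN2A thus both fell in these arrays. For this list, 3, 2 and 3 genes fell without miR-205 replicates 1, 2 and 3, and 4 without any 1 control array. Over all genes, 9.65% to 10.7% fell in the first 3 of these fits and 10.4% to 15.6% in the others.

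Genes that share only 1 of the family's domains were set beside it. Of 45 KLHL and KBTBD genes, which have a BTB domain and kelch repeats without zinc fingers, 12 fell (26.7%) and 2 rose (4.44%), with a median of -0.12. Over all genes, 14.0% fell and 12.6% rose. KLHL15 fell by 0.80 (limma adjusted p = 0.000159), KLHL18 by 0.58 and KLHL21 by 0.54, while KLHL4 rose by 0.65. Of 505 ZNF, ZSCAN and ZKSCAN genes, nearly all without a BTB domain, 159 fell (31.5%) and 19 rose (3.76%), with a median of -0.14. With all genes in the fit, the ZBTB values of 28.2% and -0.13 lay between these lists. This placement did not hold for brighter genes. With only genes above the median of all genes, 52.4% of the KLHL and KBTBD genes fell. The share was 49.4% for the ZNF, ZSCAN and ZKSCAN genes, 29.6% for the ZBTB genes and 27.0% for all genes. The ZBTB share was then below both lists. None of these differences was tested.

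**Figure D4:**
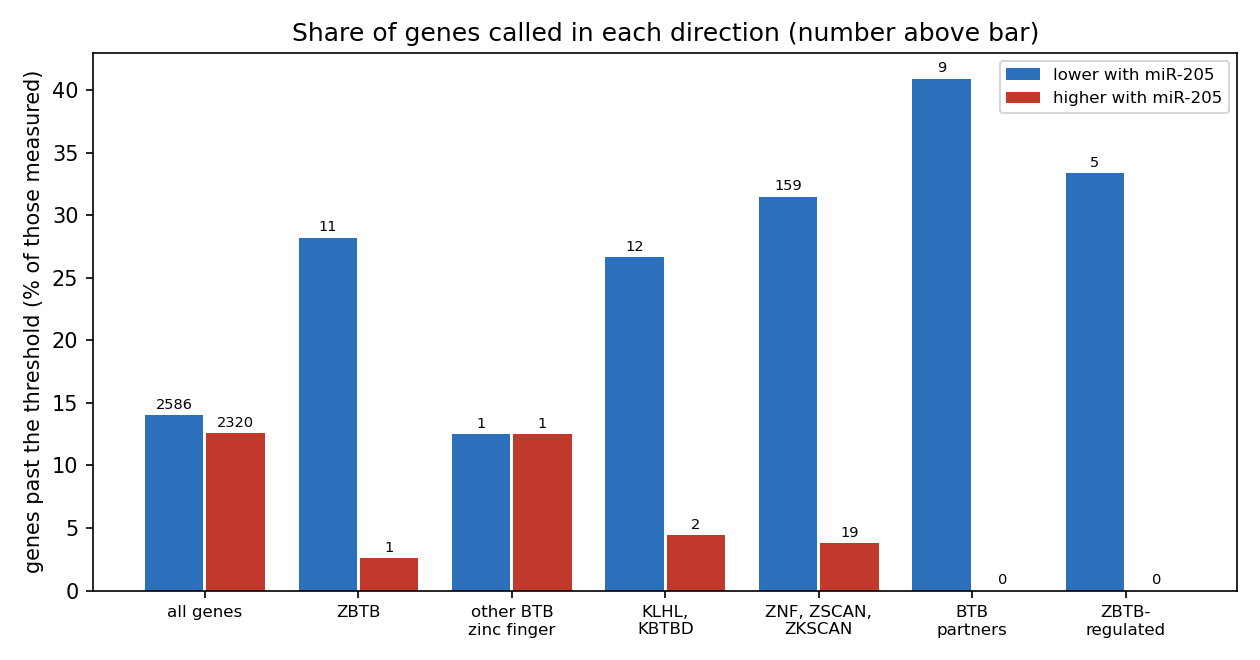
Share of measured genes past the threshold (y axis, percent, bars from 0) that were lower (blue) or higher (red) with miR-205, for all genes, the ZBTB genes and 5 other gene lists (x axis), with the number of genes above each bar. The ZBTB, KLHL and KBTBD, and ZNF lists each have 26.7% to 31.5% of genes lower, against 14.0% of all genes.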

How the data were processed

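Per the submitters' processing notes, the authors ran RMA on the 6 arrays using Affymetrix Expression Console 1.1.2, and the deposited values are log2 intensities of 33297 probe sets. The genome build is not given in the sources used here. No column of values was left unused. Genes were named from the platform annotation: of 21214 listed probe sets, 19460 carried 1 symbol and 1754 several, and the latter were not used. For each of 18417 genes the probe set with the highest mean was kept. The comparison used limma 3.58.1 (lmFit, eBayes, two-sided, 1 term for group) under R 4.3.3, with Benjamini-Hochberg adjustment over all genes and a threshold of 0.05. Named with full values were the ZBTB genes past the threshold, and up to 4 genes of each other list by smallest p. Alternatives covered normalization, dim genes, probe sets, variance, array weights, the replicate number and left-out arrays. Members and lists were chosen with earlier results of these data known. The steps were tested on simulated data. Precision is limited by having 3 arrays per group.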

Additional observations from a re-analysis of the deposited data

How the results depend on the processing

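All 12 ZBTB calls kept their direction under the 17 alternatives in which their gene was tested. With 1 array left out, 7 of the 12 passed in every fit, and 5 passed in every setting of any kind. The number of ZBTB genes that rose was 2 in place of 1 under repeated quantile normalization, with the trend of difference on signal removed, and with only genes above the olfactory receptor level or above the median of all genes, the addition being ZBTB25 in each. With 1 array left out it was 1 to 2, and the number that fell was 6 to 14 in place of 11. With an unmoderated variance 6 ZBTB genes fell, and over all genes 3040 passed in place of 4906 (3365 to 5549 with 1 array left out). ZBTB17, not called in the main fit, was 1 of the 6 that fell (-0.08, adjusted p = 0.0347 by limma's linear model without moderation). The gene that rose was then ZBTB25, and ZBTB41 had a limma adjusted p of 0.0518. That variance left 0 BTB zinc finger genes with other symbols by limma's linear model without moderation (2 at an unadjusted p under 0.05, and 2 called with moderation), 6 KLHL and KBTBD genes in place of 14, and 81 ZNF, ZSCAN and ZKSCAN genes in place of 178. With 1 array left out these were 1 to 3, 8 to 17 (8 to 9 without a miR-205 array or control replicate 3) and 121 to 221, and the ZBTB-regulated genes numbered 2 to 4 in place of 5. The replicate block, which uses the shared replicate number, left 11 ZBTB genes lower and 1 higher, with 4627 genes called in all. Same-numbered arrays had deviations correlated at 0.06, 0.09 and 0.01, and 5 of 6 arrays correlated best with their own number. That count reads the same correlations once from each group, so the 6 arrays are not 6 separate observations. Arrays with different numbers had correlations from -0.09 to 0.05. The labels do not say that equal numbers pair the arrays, and the main fit did not pair them. Whether same-numbered arrays share an effect was not tested.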

Other observations

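ZBTB8A and ZBTB8B are read together by 1 probe set and were therefore not counted among the members. That probe set stood at 8.22, 8.24 and 8.11 with miR-205 and at 8.53, 8.33 and 8.45 with the control, a difference of -0.24 (limma adjusted p = 0.0795 over all probe sets, n = 3 per group). ZBTB8OS, a neighbour named for its opposite strand and no zinc finger gene, rose by 0.30 (limma adjusted p = 0.0164). The antisense transcript ZBTB11-AS1 stood at 8.59, 8.57 and 8.51 with miR-205 and at 8.28, 8.37 and 8.44 with the control. Its difference of 0.19 did not pass (limma adjusted p = 0.0603), while ZBTB11 itself fell by 0.35. The difference between the 2 transcripts was not tested. ZBTB44-DT (0.08) and ZBTB7C-AS2 (0.19) were dim, with all arrays of both under 6.04, the level given above for olfactory receptor genes. These genes were chosen after their values were seen.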
